A study of Mus musculus with 6 samples.

Results

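The 6 dual-specificity MAP kinase phosphatases, Dusp1, Dusp2, Dusp4, Dusp5, Dusp6 and Dusp10, were followed in mouse samples labelled as regulatory T cells (Treg), from mice with and without a floxed allele of the histone acetyltransferase p300. A gene was included when a probe set, the group of short probes that reads one transcript, carried its symbol and no other. By this rule 4 of the 6 genes had probe sets, 5 probe sets in all out of 22690 on the array. Dusp1, Dusp2 and Dusp6 had 1 each and Dusp10 had 2. The annotation used here named 0 probe sets for Dusp4 and Dusp5, so these genes are not analysed here. All 4 measured genes were bright enough to be among the 8675 genes tested, out of 12393 genes with a probe set.

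The cells were CD4+CD25+ T cells of C57Bl/6 mice, purified magnetically, and their RNA was hybridized to expression arrays. The p300-deleted group (genotype fl-p300/Foxp3cre, 3 arrays) carried a floxed p300 allele and a Cre recombinase expressed from Foxp3, so that deletion is restricted to cells that have switched Foxp3 on, while CD25 is also carried by activated conventional T cells. The control group (genotype Foxp3cre, 3 arrays, titled WT) carried the same Cre without the floxed allele. No treatment, age or sex is given in the labels, which call the samples independent without naming the animals, so p-values reflect only the differences among these samples, which may in part be technical.

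MAP kinases such as ERK, JNK and p38 are switched on by phosphorylation of a threonine and a tyrosine, and dual-specificity phosphatases of this family switch them off by removing both phosphates. Most of the genes are themselves induced by the kinases they inactivate, which makes them feedback brakes and also readouts of recent signalling through the T cell receptor and cytokine receptors. Family members differ in location and in preferred substrate, with nuclear forms (Dusp1, Dusp2, Dusp4, Dusp5), a cytoplasmic ERK phosphatase (Dusp6) and a phosphatase of JNK and p38 (Dusp10).

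Before the comparison, the labels were checked against the values. All 7 T cell markers that had a probe set (of 8 listed) lay above 3.91, the dim limit below which genes were not tested, with list means relative to each marker's own mean of 0.07 to 0.15 in p300-deleted arrays and -0.16 to -0.01 in controls. Foxp3, the defining Treg factor, was read at 9.35 to 9.63 in controls and at 2.57 to 3.15, under the dim limit, in p300-deleted arrays. This reading goes against the Treg label of the p300-deleted group, but it rests on 1 probe set. Il2ra, the gene of CD25, read 9.09 to 9.17 in p300-deleted arrays and 8.62 to 9.07 in controls. Whether the low Foxp3 reading comes from the cells or from the probe set was not tested. Every difference given here therefore compares samples labelled p300-deleted Treg with Foxp3-positive controls. No probe set was named for Ep300, so the loss of p300 could not be checked, and the group is called p300-deleted by its label alone. Of signs of RNA quality, the difference between 3' and 5' probe sets of Gapdh ranged from 0.06 to 0.14 in p300-deleted arrays and from 0.21 to 0.59 in controls, without overlap, while that of actin overlapped (0.29 to 0.43 and 0.30 to 0.46). The array's control probe sets for 18S ribosomal RNA averaged 7.74, 9.47 and 7.91 in p300-deleted arrays 1, 2 and 3, against 5.68, 6.03 and 8.69 in controls 1, 2 and 3, so that control 3 lay among the p300-deleted arrays. With this mean as a covariate, 15 genes passed the test in place of 149. Their part in the results was otherwise not tested.

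No measured phosphatase passed the test for a difference between the p300-deleted and control groups. In limma, 0 of 4 had a Benjamini-Hochberg adjusted p under 0.05, where 1.72% of all genes tested did in either direction and 0.991% did as higher in p300-deleted arrays. At an unadjusted p under 0.05 there was 1 of 4, Dusp6, against 8.21% of all genes that were higher at that level. Dusp1, Dusp2 and Dusp6 lay 1.16-fold to 1.24-fold higher in the p300-deleted mean, and Dusp10 lay at 0.951-fold of the control mean. The 95% interval of each difference was narrower than a 2-fold change in either direction, with the highest upper bound at 1.54-fold for Dusp6 and the lowest bound at 0.727-fold for Dusp10. Adjusted p stayed above the threshold for all 4 under every alternative run, between 0.228 and 0.999.

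Among the nuclear, inducible phosphatases, Dusp1 (MKP-1), which acts on p38, JNK and ERK, read 12.86, 12.70 and 12.46 on the log2 scale in p300-deleted arrays 1, 2 and 3, and 12.54, 12.35 and 12.41 in control arrays 1, 2 and 3. The 2 highest values were p300-deleted 1 and 2, while p300-deleted 3 lay below control 1, so the groups overlapped. The means were 12.67 ± 0.20 (SD, n = 3) and 12.44 ± 0.10 (SD, n = 3). The difference of 0.24 (SE 0.13, limma adjusted p = 0.372) corresponded to 1.18-fold with an interval of 0.964-fold to 1.44-fold.

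Dusp2 (PAC-1), a nuclear phosphatase of activated lymphocytes, read 11.10, 11.34 and 11.30 in p300-deleted arrays, against 11.20, 11.03 and 10.88 in controls. Here p300-deleted 1, the highest array for Dusp1, was the lowest of its group and lay below control 1. The means were 11.25 ± 0.13 (SD, n = 3) and 11.04 ± 0.16 (SD, n = 3), with a difference of 0.21 (SE 0.12, limma adjusted p = 0.420), or 1.16-fold with an interval of 0.951-fold to 1.40-fold. Without control 3 it was 0.13 (limma adjusted p = 0.574).

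Dusp6 (MKP-3), the cytoplasmic phosphatase that prefers ERK and is induced by it, read 9.31, 9.10 and 9.004 in p300-deleted arrays, against 8.97, 8.89 and 8.61 in controls. It was the only 1 of the 4 whose p300-deleted arrays all lay above the controls, as was so for 10.5% of all genes tested, and the gap between the lowest p300-deleted and the highest control array was 0.03. The means were 9.14 ± 0.15 (SD, n = 3) and 8.82 ± 0.19 (SD, n = 3). The difference of 0.31 (SE 0.13) had an interval from 0.0075 to 0.62 and an unadjusted p of 0.0457 in limma, with an adjusted p of 0.265. Without control 3, the lowest array, the difference was 0.21 (limma adjusted p = 0.359).

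Dusp10 (MKP-5), which inactivates JNK and p38 and restrains cytokine production by T cells, was read by a bright and a dim probe set. The bright one read 7.65, 7.61 and 7.41 in p300-deleted arrays, against 7.69, 7.93 and 7.26 in controls. Controls 2 and 3 were the highest and the lowest of all 6 arrays, with the p300-deleted arrays between them. The means were 7.56 ± 0.13 (SD, n = 3) and 7.63 ± 0.34 (SD, n = 3), a difference of -0.07 (SE 0.17, limma adjusted p = 0.869). The sign differed between settings. The difference was 0.08 without control 2, 0.00049 without p300-deleted 3, and 0.04 (SE 0.13) in the dim probe set, which read 4.65, 4.92 and 4.87 against 4.59, 4.91 and 4.82.

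**Figure D1:**
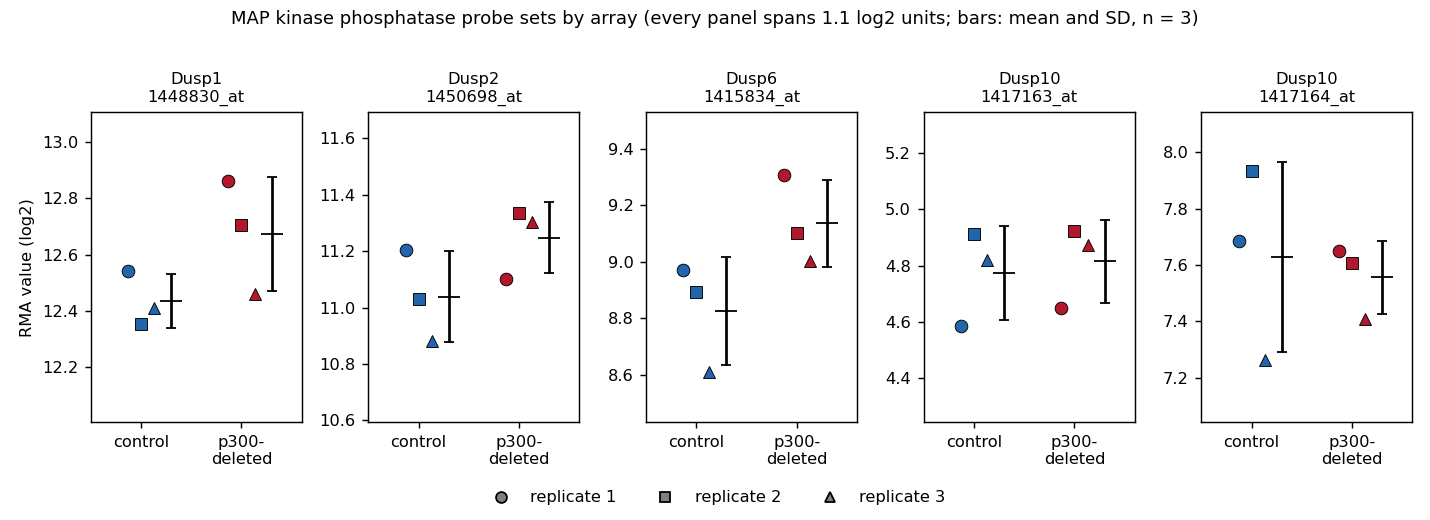
RMA values on the log2 scale of the 5 probe sets of Dusp1, Dusp2, Dusp6 and Dusp10, 1 panel each and all panels to the same vertical span, with control arrays in blue and p300-deleted arrays in red, symbols for the replicate number and bars for mean and SD (n = 3). Only in the Dusp6 panel do the red points all lie above the blue ones, by 0.03, and the controls of the brighter Dusp10 probe set (rightmost panel) spread from 7.26 to 7.93.

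The profiles of the 4 genes over the arrays differed. As a description over 6 arrays, after each gene was centred on its own mean, Dusp1 and Dusp6 had the most alike profiles of the 6 pairs, with a root mean square difference of 0.12 on the log2 scale. Both were highest in p300-deleted 1, at 0.31 and 0.33 above their own means. Dusp1 and Dusp10 were the least alike pair, at 0.27, which is larger than the deviations of either gene from its own mean (0.18 and 0.21).

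The promoters of this most alike pair are shown because p300 and its paralogue CBP are coactivators of CREB, a factor that binds the cyclic AMP response element (CRE), and because this element separates the 2 sequences. Each run is the 250 bases before the start of the gene, 5′ to 3′ on the strand of the gene, from RefSeq on build GRCm38.p6. That of Dusp1 is chr17:26508473-26508722 on the minus strand and that of Dusp6 is chr10:99262981-99263230 on the plus strand. Capitals mark matches to the searched motifs.
Dusp1: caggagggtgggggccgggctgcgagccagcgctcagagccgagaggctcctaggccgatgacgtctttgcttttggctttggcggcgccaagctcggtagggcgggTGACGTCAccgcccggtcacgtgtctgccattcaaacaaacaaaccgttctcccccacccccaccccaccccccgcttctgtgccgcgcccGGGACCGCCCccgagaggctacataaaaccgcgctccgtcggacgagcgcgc
Dusp6: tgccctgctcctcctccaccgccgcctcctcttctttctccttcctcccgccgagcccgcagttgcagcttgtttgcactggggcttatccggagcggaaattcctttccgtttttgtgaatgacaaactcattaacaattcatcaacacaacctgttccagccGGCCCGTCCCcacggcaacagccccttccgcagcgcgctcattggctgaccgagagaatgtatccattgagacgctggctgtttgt
The window searched also held the first 50 bases of each gene, 300 bases in all, on both strands. The full CRE, TGACGTCA, was found once in Dusp1, starting at position -143 from the start of the gene, and in 588 of 32851 RefSeq promoter windows of the same length (1.79%). It was not found in the windows of Dusp2, Dusp5, Dusp6 or Dusp10. The second run of capitals in Dusp1, GGGACCGCCC, and the run in Dusp6, GGCCCGTCCC, match the NF-kB pattern (GGGA, any 4 bases, CC). The window of Dusp5 holds a further match, GGGAAATACC at position -91, so 3 of these 5 windows hold the pattern, where 20.7% of all windows do. The AP-1 pattern TGANTCA, the STAT pattern TTCNNNGAA and the TATA box TATAAA, held by 7.81%, 8.30% and 13.6% of the windows, were not found in these 5 windows. The table used here holds no window for Dusp4. A match is a description of letters and not a measured binding site, and no binding was measured in this study's arrays.

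Outside the family, the gene with the profile most like that of Dusp1 was Junb, a subunit of the AP-1 transcription factor that is induced by the same kinases (root mean square difference 0.04 over 6 arrays, among all genes tested that are not in the family). Junb read 12.25, 12.13 and 11.88 in p300-deleted arrays, against 11.94, 11.85 and 11.81 in controls, a difference of 0.22 (SE 0.12, limma adjusted p = 0.393). As in Dusp1, p300-deleted 1 was the highest array and p300-deleted 3 lay below control 1. The next nearest to Dusp1 was BC005624 at 0.04. The profiles most like the others were Ptov1 (0.02) and the semaphorin receptor Plxna3 (0.04) for Dusp2, the sialyltransferase St3gal3 (0.05) and the endosomal protein Rufy1 (0.06) for Dusp6, and the threonine aldolase Tha1 (0.03) and the coenzyme A synthase Coasy (0.04) for Dusp10. None of these 8 genes passed the test, with adjusted p from 0.218 to 0.892 in limma, and a further, dimmer probe set of BC005624 and of Plxna3 had the opposite sign.

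**Figure D2:**
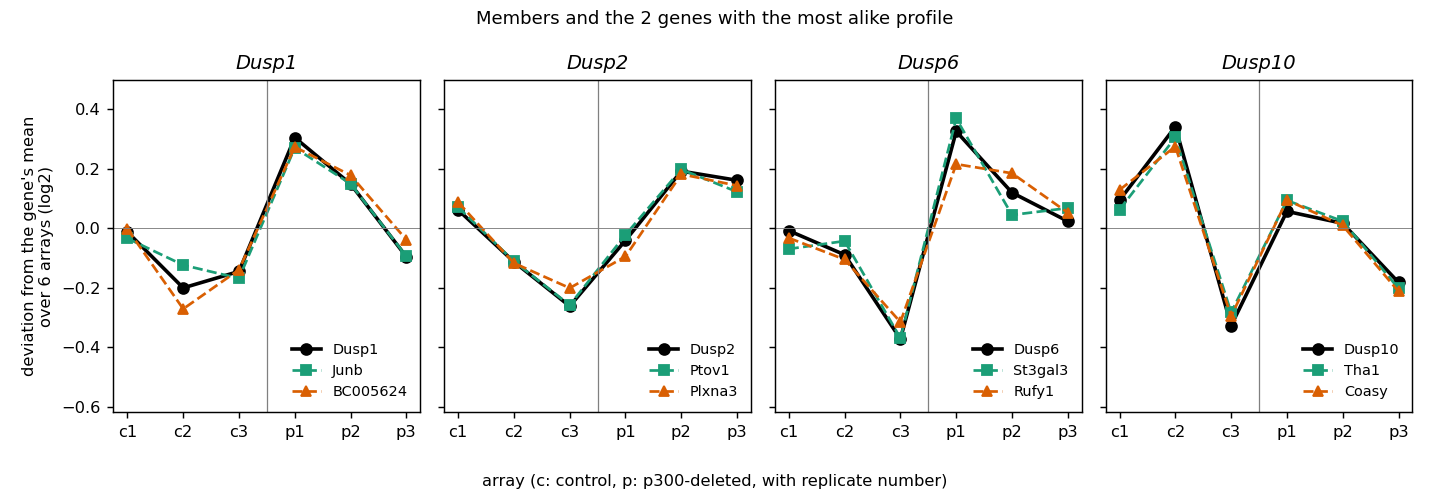
Deviation of each of the 4 phosphatases (black) from its own mean over the 6 arrays, on the log2 scale, with the 2 genes of the most alike profile (coloured), by array (c1 to c3 control, p1 to p3 p300-deleted). Lines only guide the eye. Dusp1 with Junb and Dusp6 with St3gal3 are highest in p300-deleted 1, while Dusp10 with Tha1 and Coasy is highest in control 2 and lowest in control 3.

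The array on which Dusp1 and Dusp6 were highest, p300-deleted 1, also had the highest means of the myeloid, mast cell and basophil, plasma cell and NK cell markers. Relative to each marker's own mean over the arrays, the 11 myeloid markers with a probe set (of 12 listed, 9 above the dim limit of 3.91) averaged 1.18, 0.05 and 0.16 in p300-deleted arrays 1, 2 and 3 and -0.36, -0.87 and -0.16 in controls. Markers of mast cells and basophils (10 of 10 with a probe set) ranged from 0.21 to 0.84 in p300-deleted arrays and from -0.61 to -0.41 in controls, plasma cell markers (6 of 8) from 0.24 to 0.74 and from -0.54 to -0.39, NK cell markers (6 of 8) from 0.06 to 0.60 and from -0.56 to -0.29, B cell markers (7 of 8) from -0.44 to 0.16 and from 0.04 to 0.23, and the CD8 genes (2 of 2) from 0.05 to 0.23 and from -0.14 to -0.07. In limma 6 of 9 tested mast cell and basophil markers, 4 of 6 plasma cell markers and 2 of 6 NK cell markers rose. Of myeloid markers 0 of 9 changed (4 higher at an unadjusted p under 0.05), and of B cell markers 0 of 5 (0 at that level). Of all genes tested, 0.991% rose and 0.726% fell, and before adjustment 8.21% were higher and 9.89% lower at p under 0.05. In RNA of whole samples, the number of cells of a type and the RNA per cell cannot be told apart. Without p300-deleted 1 the differences were 0.15 for Dusp1, 0.28 for Dusp2, 0.23 for Dusp6 and -0.12 for Dusp10, with limma adjusted p of 0.738, 0.477, 0.594 and 0.867. The part of these other cells in the levels of the phosphatases was not tested.

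No other gene of the wider family passed the test either. Of 25 listed dual-specificity phosphatases 19 had a probe set and 13 were tested. In limma 0 changed, where 1.72% of all genes tested did. Before adjustment 2, Dusp6 and Dusp14, were higher at p under 0.05, where 8.21% of all genes were. The median difference of the 13 was 0.10, with 10 positive and 3 negative. The median of all genes tested was -0.03, and 45.0% were positive. The kinase-binding phosphatases closest to the members, Dusp7, which acts on ERK, and Dusp16, which acts on JNK, were at -0.15 (SE 0.17) and 0.02 (SE 0.13), with adjusted p of 0.694 and 0.952.

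The largest difference of the family was that of Dusp14 (MKP6), a small phosphatase without the kinase-binding domain that restrains T cell receptor signalling. It read 5.58, 5.44 and 5.64 in p300-deleted arrays, against 5.19, 4.94 and 5.13 in controls, so that the groups did not overlap. The difference was 0.47 (SE 0.11, limma adjusted p = 0.0846), and it passed under 1 of 14 alternatives, array weights (0.38, limma adjusted p = 0.0389). Dusp3 (VHR), a small phosphatase of ERK and JNK, was at -0.28 (SE 0.16, limma adjusted p = 0.422), with a second, dimmer probe set at -0.29. It was at -0.13 without control 3 and -0.15 without p300-deleted 2 (limma adjusted p = 0.631 and 0.827).

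**Figure D3:**
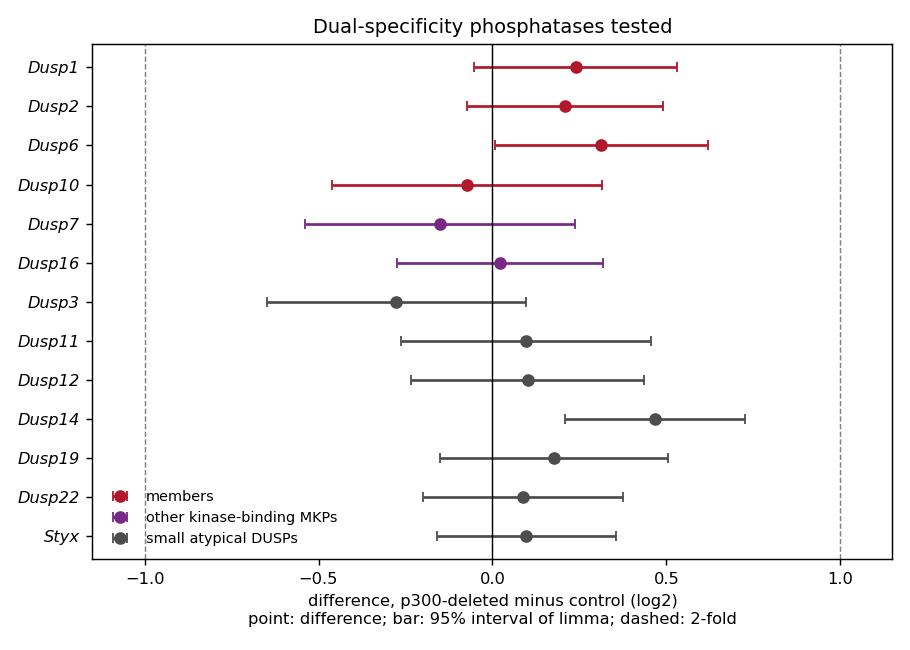
Difference of each of the 13 dual-specificity phosphatases tested, as p300-deleted minus control in log2 units, with the 95% interval of limma as bars and dashed lines at 2-fold. All intervals lie inside the dashed lines, and those of Dusp6 and Dusp14 alone do not cross 0.

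The kinases on which these phosphatases act gave no call. Of all genes tested, 8.21% had an unadjusted p under 0.05 as higher and 9.89% as lower, against which the counts before adjustment given here and for the upstream kinases are to be read. Of 8 tested MAP kinases limma called 0 (before adjustment, 1 higher and 1 lower had p under 0.05), with a median of -0.17. The 2 JNK genes tested had opposite signs in the probe set that stood for each. Mapk8 (JNK1) read 6.98, 6.98 and 6.62 in p300-deleted arrays, against 6.38, 6.03 and 6.13 in controls, without overlap, a difference of 0.68 (SE 0.14, limma adjusted p = 0.0567), and its other 2 probe sets were at 0.36 and 0.21. Mapk9 (JNK2) was at -0.29 (SE 0.11, limma adjusted p = 0.236), but its other 2 probe sets were at 0.21 and 0.14. Mapk8 passed under 2 of 15 alternatives, with an adjusted p of 0.0474 with a dim filter that removed 50% of genes and 0.0270 with array weights, and elsewhere the adjusted p was up to 0.246.

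The upstream kinases and Ras activators likewise held no gene past the threshold. Of 6 MAP kinase kinases limma called 0 (before adjustment, 1 lower had p under 0.05), with a median of -0.08, and Map2k2 (MEK2), which activates ERK, and Map2k3, which activates p38, were at -0.29 and -0.23 (adjusted p = 0.256 and 0.392). Without control 3, Map2k3 was at -0.12 (limma adjusted p = 0.570). Of 9 MAP3 kinases and Raf genes limma called 0 (before adjustment, 0 had p under 0.05), with a median of 0.04, and Map3k11 and Map3k8 were at -0.25 and -0.20 (adjusted p = 0.356 and 0.459). Without control 1 these were at -0.16 and -0.09 (limma adjusted p = 0.614 and 0.770). Of 12 genes of the Ras input limma called 0 (before adjustment, 1 higher and 1 lower had p under 0.05), with a median of -0.06. The exchange factor Sos2 was at 0.46 and the small GTPase Rras at -0.34 (limma adjusted p = 0.112 and 0.156). Of 5 kinases activated by MAP kinases limma called 0 (before adjustment, 1 lower had p under 0.05), with Mapkapk2, a target of p38, at -0.25 and Mknk1 at 0.23 (adjusted p = 0.265 and 0.447). Further, dimmer probe sets of Mknk1 were at 0.48 and, in the dimmest, -0.51.

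A brake of the pathway outside the family did rise. Of 12 tested genes that restrain ERK or Ras outside this family, 1 rose, 0 fell and 11 did not pass, with a median of 0.03. Over all genes tested, 0.991% rose and 0.726% fell. The gene was Spry1, a Sprouty protein that blocks activation of Ras and ERK and, like Dusp6, is induced by ERK signalling. It read 8.53, 8.38 and 8.53 in p300-deleted arrays, against 7.80, 7.73 and 7.69 in controls. The groups were separated by more than their own ranges, and the difference was 0.74 (SE 0.10, limma adjusted p = 0.0223). The value ranged from 0.69 to 0.81 over 15 alternatives and passed under 10. The call was lost with the 18S ribosomal RNA covariate (adjusted p = 0.0781) and without p300-deleted 1, 2 or 3 or control 1 (adjusted p = 0.0612, 0.0616, 0.0713 and 0.109). Whether Spry1 and Dusp6 differed in their response was not tested.

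Among early genes that MAP kinases induce, 22 of 25 were tested, of which 1 rose, 0 fell and 21 did not pass (of all genes, 0.991% rose and 0.726% fell). Their median was 0.05, from 14 positive and 8 negative differences. Before adjustment, 4 were higher and 0 lower at p under 0.05 in limma, where 8.21% and 9.89% of all genes were. These were Jun, Btg2, Fos and Egr1, with Egr1 at 0.39 (SE 0.16, limma adjusted p = 0.251) and overlapping groups. The gene that rose was Jun, the AP-1 subunit phosphorylated by JNK. It read 12.23, 12.17 and 12.28 in p300-deleted arrays, against 11.10, 11.05 and 11.66 in controls. All p300-deleted arrays lay above the controls, with control 3 the nearest, and the difference was 0.95 (SE 0.16, limma adjusted p = 0.0390). A second, dimmer probe set of Jun was at 0.35, and the mean of both at 0.65 (limma adjusted p = 0.0437). A limma fit over all single probe sets, not counted among the alternatives, gave adjusted p of 0.0591 for the bright one and 0.162 for the dimmer. Jun passed under 9 of 15 alternatives and not with the 18S covariate (0.74, adjusted p = 0.127) or without p300-deleted 1, 2 or 3 or control 1 or 2 (adjusted p = 0.0821, 0.125, 0.106, 0.145 and 0.0653). The next early genes were chosen after their values were seen. Fos, the partner of Jun in AP-1, was at 0.31 (SE 0.11, limma adjusted p = 0.186). Myc, a growth-promoting transcription factor, was the lowest of the list at -0.43 (SE 0.20, limma adjusted p = 0.297), with overlapping groups. Without p300-deleted 1, Myc was at -0.27 (limma adjusted p = 0.638), and with the 18S covariate at -0.22 (limma adjusted p = 0.744). Btg2, an antiproliferative early gene, was the highest at 1.34 (SE 0.32, limma adjusted p = 0.0810). Btg2 was at 1.72 (limma adjusted p = 0.0157) without control 3, at 1.02 (limma adjusted p = 0.131) without control 2 and at 0.79 (limma adjusted p = 0.237) with the 18S covariate.

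**Figure D4:**
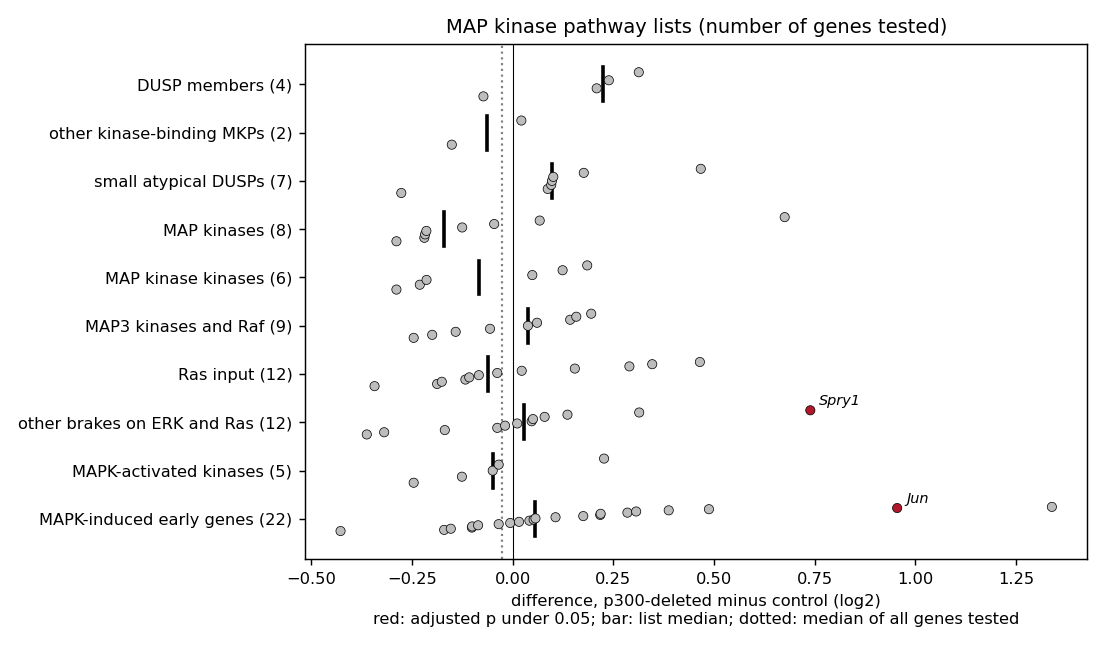
Difference of each gene tested in the 10 lists of the MAP kinase pathway, as p300-deleted minus control in log2 units, with the number tested in brackets, black bars for list medians and a dotted line for the median of all genes tested (-0.03). Only Spry1 and Jun (red) had an adjusted p under 0.05, and the 4 members lie between -0.07 and 0.31.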

How the data were processed

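Expression was measured on 6 arrays. The deposited values, 1 for each probe set and array, are on the log2 scale and come from RMA (background correction, quantile normalization and probe summary), per the submitters' processing notes, with its version not given in the sources used here. Quantile normalization hides a change in total RNA, and dim values are compressed. The 3 arrays per group limit the precision. Of 22690 probe sets, 20393 had 1 symbol, 691 several and 1606 none, and 13 control probe sets among the first were left out. By gene ID 20351 were matched to RefSeq (GRCm38.p6). The probe set with the highest mean stood for a gene, and the 30% of genes with the lowest means (under 3.91) were left out. The comparison used limma 3.58.1 (lmFit, then eBayes; R 4.3.3) with 2-sided tests and Benjamini-Hochberg adjustment over 8675 genes. Intervals are those of limma, not adjusted. A gene rose or fell at an adjusted p under 0.05. The fit was tested on simulated data.

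The members and lists were chosen with earlier results of these data known. Named were all members, from each pathway list the genes past the threshold (at most 4) or otherwise the 2 with the smallest p, and for each member the 2 genes with the smallest root mean square difference of centred profiles. Alternatives were the dim filter, the mean of probe sets, median centring, further quantile normalization, array weights, trended variance, a block for the replicate number, the 18S ribosomal RNA control mean as a covariate, each array left out and single probe sets.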

Additional observations from a re-analysis of the deposited data

How the results depend on the processing

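None of Dusp1, Dusp2, Dusp6 and Dusp10 passed the threshold under any of the 15 alternatives run for all 4, nor did the second probe set of Dusp10. The ranges were 0.15 to 0.35 for Dusp1, 0.12 to 0.29 for Dusp2 and 0.21 to 0.47 for Dusp6, all positive. Dusp10 had both signs, at 0.13 with the 18S covariate, 0.041 in its dim probe set and -0.25 to 0.080 when single arrays were left out. The number of changed genes, 149, was 95 with the mean of all probe sets, 1019 with array weights, 15 with the 18S covariate, 98 with the replicate block and 9 to 230 when single arrays were left out. With array weights, Sos2, Rras and Btg2 also passed (limma adjusted p = 0.0412, 0.0323 and 0.0081). Whether the same replicate numbers pair the samples could not be told from the values. The correlations of their deviations from the group means were -0.07, 0.12 and -0.12, and those of different numbers ranged from -0.19 to 0.23. With 3 arrays per group such correlations cannot decide it. The replicate block changed no call among the genes named. Signs turned for Coasy (0.12) and Tha1 (0.11) with the 18S covariate, and for Mapk9 (0.022) and Plxna3 (-0.068) with the mean of all probe sets. For Mapk9 the brightest probe set was at -0.29 and the dimmer ones at 0.21 and 0.14. The sign of Dusp16 turned with median centring (-0.00095) and further quantile normalization (-0.016). When single arrays were left out the ranges were -0.24 to 0.047 for Coasy, -0.21 to 0.082 for Tha1, -0.10 to 0.099 for Dusp16 and -0.29 to 0.031 for Dusp7. The cause was not tested. Dusp4 and Dusp5 could not be fitted because no probe set carried their symbol.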
